A study of Mus musculus with 8 samples.

Results

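Protocadherins are the largest group of cadherin-type adhesion proteins, and 33 of the 19356 genes measured here belonged to it. They were taken by name: every gene whose symbol starts with Pcdh and that has a probe set (the group of array probes summed into 1 value) carrying exactly 1 gene symbol, read at its brightest probe set, by the average of all 8 arrays. Of the 33, 21 were protocadherin beta genes (Pcdhb2 to Pcdhb22) and 12 were non-clustered genes (Pcdh1, Pcdh7, Pcdh8, Pcdh9, Pcdh10, Pcdh11x, Pcdh12, Pcdh15, Pcdh17, Pcdh18, Pcdh19 and Pcdh20). No alpha and no gamma gene met the rule. Of the 22 beta genes in the RefSeq gene table, Pcdhb1 was not analysed here. The large falls of beta genes in the knock-out arrays were already known when this gene family was picked, so the changes of the beta genes below are a description of the family and not an independent test of it.

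The tissue was caudal urogenital ridge from mouse embryos at E10.75, the region where the kidney begins, and the arrays set wildtype against Sox11 knock-out (Sox11-/-) embryos. There were 4 biological replicates of each genotype, and all came from mice of mixed genetic background that received no treatment. The sources used here do not give how the Sox11 allele was made, whether the embryos were littermates, or whether a replicate was a single embryo or a pool. RNA came from whole tissue, so fewer cells expressing a gene and less RNA per cell cannot be told apart in any result below.

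Protocadherins are single-pass membrane proteins with extracellular cadherin repeats. The alpha, beta and gamma genes lie side by side in 3 clusters, and each variable exon has a promoter of its own. In neurons each cell uses a small, partly random set of these promoters, which is fixed by the insulator protein CTCF, by cohesin and by DNA methylation, and the resulting set of proteins on the surface lets a neuron tell its own branches from those of other cells. Alpha and gamma transcripts share constant exons that encode a common cytoplasmic part, whereas each beta gene is a single exon without such a part. Non-clustered protocadherins are separate genes scattered over the genome, with roles in cell sorting and axon growth, and several of them are active in embryonic mesoderm. Sox11 encodes a SoxC transcription factor known from young neurons and from the early kidney.

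Values are log2 signals made by the submitters with RMA, a method that corrects background and forces the arrays to the same distribution. The 8 array medians lay between 7.29 and 7.31, and pairs of arrays correlated at 0.987 to 0.995 across genes (Pearson's r, with genes not being independent replicates). Sox11, the targeted gene, had a log2 signal of 11.79 ± 0.06 (SD, n = 4) in wildtype and 9.10 ± 0.13 (SD, n = 4) in knock-out arrays, so the labels fit their arrays. Of the measured markers of the intended tissue, 10 of 10 for the metanephric mesenchyme and 7 of 9 for the nephric duct exceeded the all-gene median. So did 8 of 8 endothelial markers, so this level does not single out the kidney region. Y-linked genes gave signal in 1 wildtype and 2 knock-out arrays. A change is knock-out minus wildtype on the log2 scale throughout, and a gene was called when its limma p-value, adjusted over the 19356 genes after Benjamini and Hochberg, was under 0.05. In that fit 1.44% of all genes were called: 1.08% of all genes as lower and 0.362% of all genes as higher in the knock-out.

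All 21 beta genes had a lower mean signal in the knock-out ridges, and 12 of the 21 fell past the threshold, where 1.08% of all genes did. The 12 were Pcdhb2, Pcdhb3, Pcdhb11 and the unbroken run from Pcdhb14 to Pcdhb22. Their changes ran from -1.42 to -0.64 with a median of -1.16. No beta gene was called higher. Over all 21 the median change was -0.68, against 0.00 over all genes. In the non-clustered genes limma called 0 of 12 in either direction, where it called 1.44% of all genes. The median change of the 12 was 0.09.

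The fall of the beta genes was large on the scale of this data set. Of the 24 genes, or 0.124% of those measured, that were at least 2-fold lower in the knock-out mean, 9 were beta genes. At an adjusted p under 0.01 limma called 60 genes lower, which is 0.31% of all, and 10 of those were beta genes. At the looser limit of 0.10 it called 2.4% of all genes lower, and the beta count stayed at 12. In 15 of the 21 beta genes every knock-out array lay below every wildtype array, a separation that held for 6.47% of all genes. At an unadjusted p under 0.05, 20 of the 21 were lower, against 9.38% of all genes, and the exception was Pcdhb10.

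**Figure D1:**
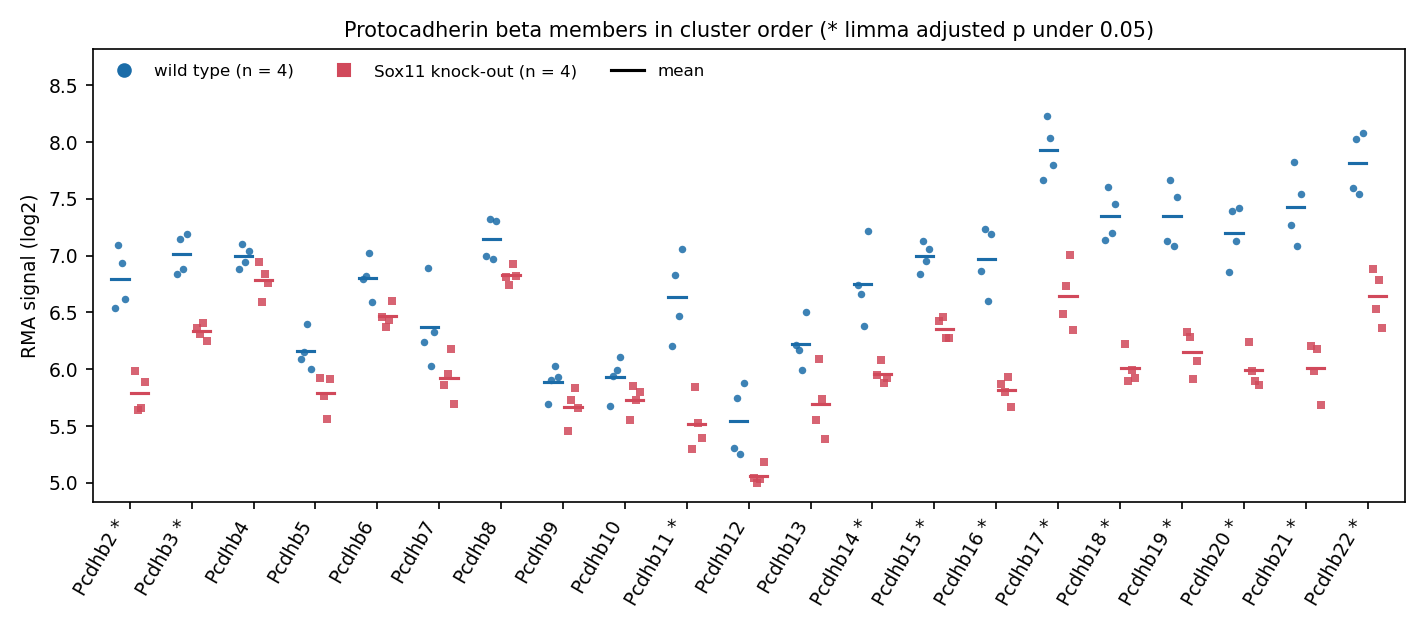
Log2 RMA signal (vertical axis) of the 21 beta genes on each array, in the order of the genes along the cluster. Circles are the 4 wildtype arrays, squares the 4 Sox11 knock-out arrays, horizontal lines the means, and an asterisk marks a limma adjusted p under 0.05. From Pcdhb14 to Pcdhb22 the points of the genotypes do not overlap, while from Pcdhb4 to Pcdhb10 they lie close together.

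The far end of the cluster, away from the alpha genes, held the largest falls. Pcdhb21 read 7.27, 7.82, 7.09 and 7.54 in wildtype replicates 1 to 4 and 6.21, 5.98, 6.18 and 5.68 in knock-out replicates 1 to 4. The lowest wildtype array was 0.88 above the highest knock-out array. This made Pcdhb21 2.67-fold lower in the knock-out, with a change of -1.42 (SE 0.16, limma adjusted p = 0.00258). Pcdhb18 had the widest clear space between the genotypes, 0.92 on the log2 scale, with 7.14, 7.61, 7.20 and 7.46 in wildtype and 6.22, 5.90, 5.99 and 5.92 in knock-out arrays. It was 2.54-fold lower (change -1.34, SE 0.11) and had the smallest limma adjusted p of the family, 4.53e-04.

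Pcdhb17 gave 7.67, 8.23, 8.03 and 7.80 in wildtype and 6.48, 6.74, 7.01 and 6.34 in knock-out arrays. This was a change of -1.29 (SE 0.16), or 2.45-fold lower. Its neighbour Pcdhb16 was the steadiest of the strongly lowered genes in the knock-out, at 5.87, 5.80, 5.93 and 5.66 after 6.87, 7.24, 6.60 and 7.19 in wildtype, and was 2.23-fold lower. Pcdhb19 and Pcdhb20 moved almost alike. Pcdhb19 went from 7.35 ± 0.29 to 6.15 ± 0.19 and Pcdhb20 from 7.20 ± 0.26 to 5.99 ± 0.17 (SD, n = 4 in each group), which is 2.30-fold and 2.31-fold lower.

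Pcdhb22, the last gene of the cluster, read 7.60, 8.03, 7.54 and 8.08 in wildtype and 6.89, 6.53, 6.79 and 6.36 in knock-out arrays, a 2.25-fold fall. The 7 genes from Pcdhb16 to Pcdhb22 were therefore each at least 2-fold lower, with changes from -1.42 to -1.16 and limma adjusted p-values from 4.53e-04 to 0.00464. Their genotypes were parted by 0.62 or more on the log2 scale, and the typical SD within a genotype was 0.28 in wildtype and 0.19 in knock-out arrays (medians over the 7 genes). Pcdhb15 fell less, by 0.64 on the log2 scale, but its arrays agreed closely, with 6.84, 7.13, 6.96 and 7.06 against 6.43, 6.46, 6.27 and 6.27 (SE 0.08, limma adjusted p = 0.00464).

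Pcdhb14, at the inner edge of this run, was the least secure of the called genes. It read 6.74, 6.66, 6.38 and 7.21 in wildtype and 5.95, 6.08, 5.88 and 5.92 in knock-out arrays. The knock-out arrays were tight and the wildtype arrays spread widely. The change was -0.79 (SE 0.15, limma adjusted p = 0.0290), and the call was lost in 5 of the 8 fits that leave out 1 array: those without wildtype replicate 1 or 2 and without knock-out replicate 1, 3 or 4 (limma adjusted p up to 0.0923). Median centring or a covariate for Y-linked signal also ended the call.

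Outside that run 3 beta genes fell. Pcdhb2, the first measured gene of the cluster, read 6.54, 7.09, 6.94 and 6.62 in wildtype and 5.98, 5.64, 5.66 and 5.89 in knock-out arrays, and was 2.01-fold lower (limma adjusted p = 0.00468). Next to it, Pcdhb3 went from 6.84, 7.15, 6.88 and 7.19 to 6.36, 6.31, 6.41 and 6.25, a 1.60-fold fall (limma adjusted p = 0.00571). Neither overlapped between genotypes. Pcdhb11 lies in the middle of the cluster between genes that were not called. It read 6.20, 6.83, 6.47 and 7.06 in wildtype and 5.30, 5.84, 5.53 and 5.39 in knock-out arrays, 2.18-fold lower with the largest SE of the family (change -1.12, SE 0.18, limma adjusted p = 0.0149). Without wildtype replicate 2, or without knock-out replicate 1 or 4, Pcdhb11 missed the threshold (limma adjusted p up to 0.0565).

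The other 9 beta genes did not pass. From Pcdhb4 to Pcdhb10, 7 genes in a row had changes between -0.45 and -0.20, with a median of -0.32 and limma adjusted p-values from 0.110 to 0.353. Pcdhb4 was at 6.88, 7.10, 6.95 and 7.04 in wildtype and 6.95, 6.59, 6.84 and 6.76 in knock-out arrays, so its groups overlapped. Its change was -0.21, with a 95% interval from -0.40 to -0.02. Pcdhb8 read 7.001, 7.32, 6.97 and 7.31 against 6.81, 6.74, 6.93 and 6.82, without overlap but parted by 0.04 alone, and had a change of -0.32 (95% interval -0.54 to -0.11). Neither gene was read at the bottom of the scale, since Pcdhb4 and Pcdhb8 lay at the 41.4th and 42.9th percentiles of level among all genes.

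Pcdhb9 and Pcdhb10 lay near the bottom of the scale in both genotypes. Pcdhb10 read 5.68, 5.94, 5.99 and 6.11 in wildtype and 5.56, 5.85, 5.73 and 5.80 in knock-out arrays (change -0.20, 95% interval -0.42 to 0.02). Pcdhb9 had a change of -0.22 (95% interval -0.44 to -0.0030). Pcdhb5, Pcdhb6 and Pcdhb7 had changes of -0.37, -0.34 and -0.45 (limma adjusted p = 0.118, 0.110 and 0.221). Of these 3, the genotypes stayed apart in Pcdhb5, by 0.08 on the log2 scale.

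Beside Pcdhb11, Pcdhb12 and Pcdhb13 were also not called. Pcdhb12 had the lowest signal of the family, 5.31, 5.74, 5.26 and 5.88 in wildtype and 5.04, 4.996, 5.03 and 5.18 in knock-out arrays. Its level was at the 0.129th percentile of all genes, and its change of -0.48 (limma adjusted p = 0.110) was read at the very bottom of the scale. Pcdhb13 read 6.22, 6.17, 5.99 and 6.50 against 5.55, 6.09, 5.73 and 5.39. Knock-out replicate 2 reached into the wildtype range, and without that array Pcdhb13 was called (limma adjusted p = 0.0461).

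Leaving out arrays moved few other calls. Apart from Pcdhb11 and Pcdhb14, the 10 called beta genes were called in all 8 fits that leave out 1 array, and the count of called beta genes lay between 10 and 13. All 21 stayed below 0 in each of those fits and in the fits with other normalizations, array weights or a Y-linked covariate. The probe set rules could not alter these changes, since each beta gene had a single probe set. Nor could the replicate block, which is balanced between the genotypes. A model that takes each gene's own variance without sharing it between genes left 1 call, Pcdhb18 (adjusted p = 0.0391), and gave the other 11 adjusted p-values from 0.0598 to 0.138. That model called 55 genes in all, in place of 279.

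The replicates of the beta genes moved together within the wildtype group. Averaged over the 21 genes, the log2 signal was 6.65, 6.995, 6.71 and 6.94 in wildtype replicates 1 to 4 and 6.09, 6.08, 6.08 and 5.97 in knock-out replicates 1 to 4. Replicate 2 was the highest wildtype array in 10 of the 21 genes and replicate 4 in 8, while replicate 1 was the highest in 0. Over all genes each wildtype array was the highest in 21.5% to 30.1%. In 13 of the 21 beta genes replicates 2 and 4 both lay above replicates 1 and 3, which held for 14.8% of all genes. For the 12 called genes the highest wildtype array was replicate 2 in 7 and replicate 4 in 5. The beta genes are thus not separate readings: an array high in 1 of them tended to be high in others, and even the lower wildtype arrays, replicates 1 and 3, lay above the knock-out arrays in each called gene.

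**Figure D2:**
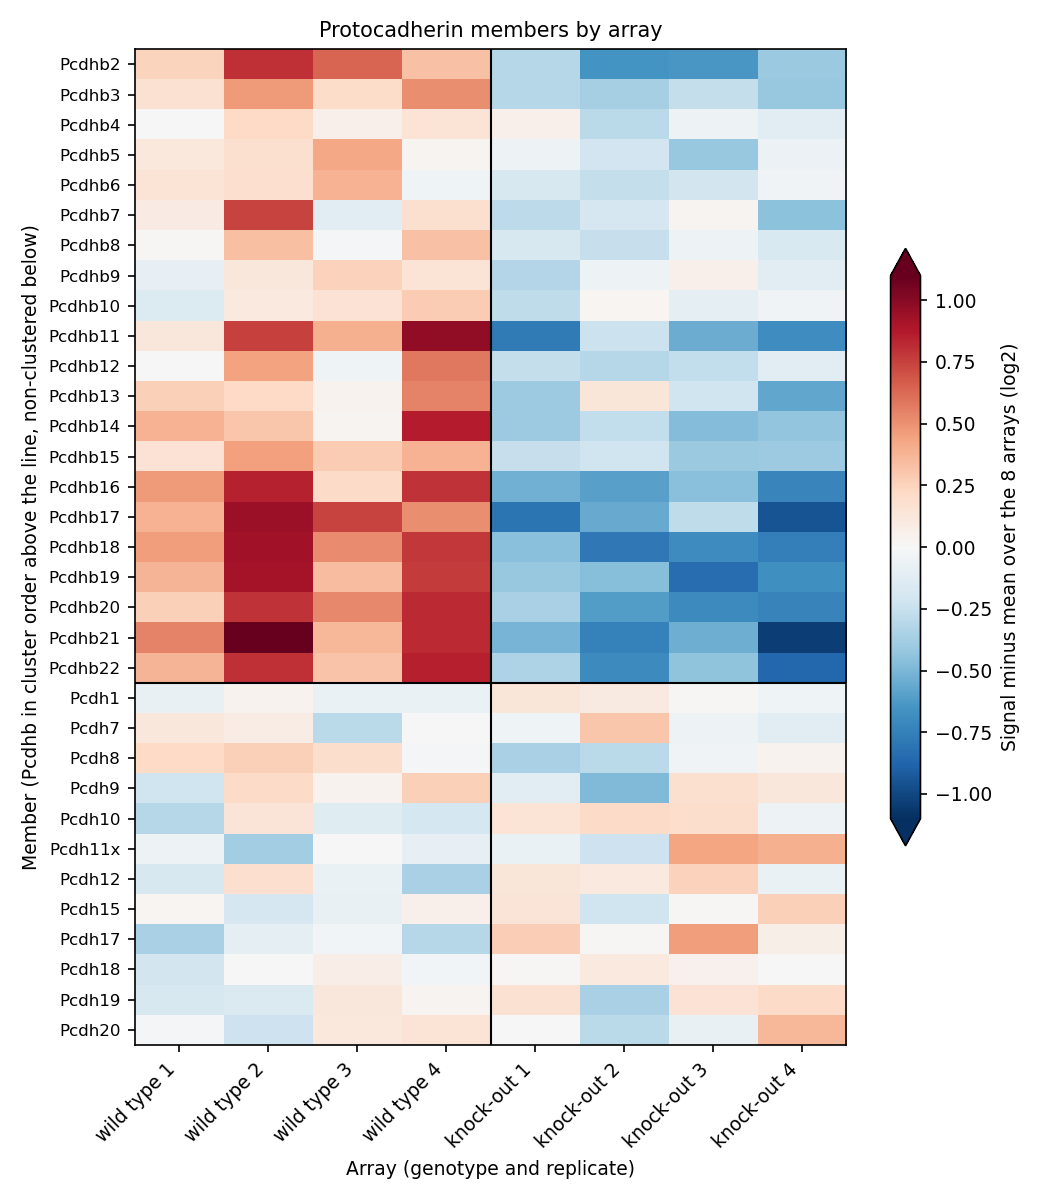
Log2 signal of each of the 33 members on each array, as the difference from that member's mean over the 8 arrays (colour scale, red above and blue below the mean). Rows above the line are the beta genes in cluster order and rows below it the non-clustered genes; columns are the 4 wildtype and 4 knock-out replicates. The block from Pcdhb14 to Pcdhb22 is red in wildtype and blue in knock-out arrays, with wildtype replicates 2 and 4 the strongest in most rows, and the non-clustered rows show no such block.

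Probes of similar genes can read each other's transcripts. The beta genes resemble each other closely in sequence, and no probe sequences were used here, so each single beta value may hold signal from its relatives. How far this entered the values was not tested.

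The beta genes were read in the lower part of the scale. None of the 21 beta genes exceeded the all-gene median (7.55), and 14 lay above the 25th percentile (6.22). Wildtype means ran from 5.55 to 7.93 and knock-out means from 5.06 to 6.83. The 5th percentile of all genes was 5.66, and the knock-out means of Pcdhb11 and Pcdhb12, 5.52 and 5.06, lay below it. Of the 14 genes above the 25th percentile 11 were called, and of the 7 below it 1, Pcdhb11.

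**Figure D3:**
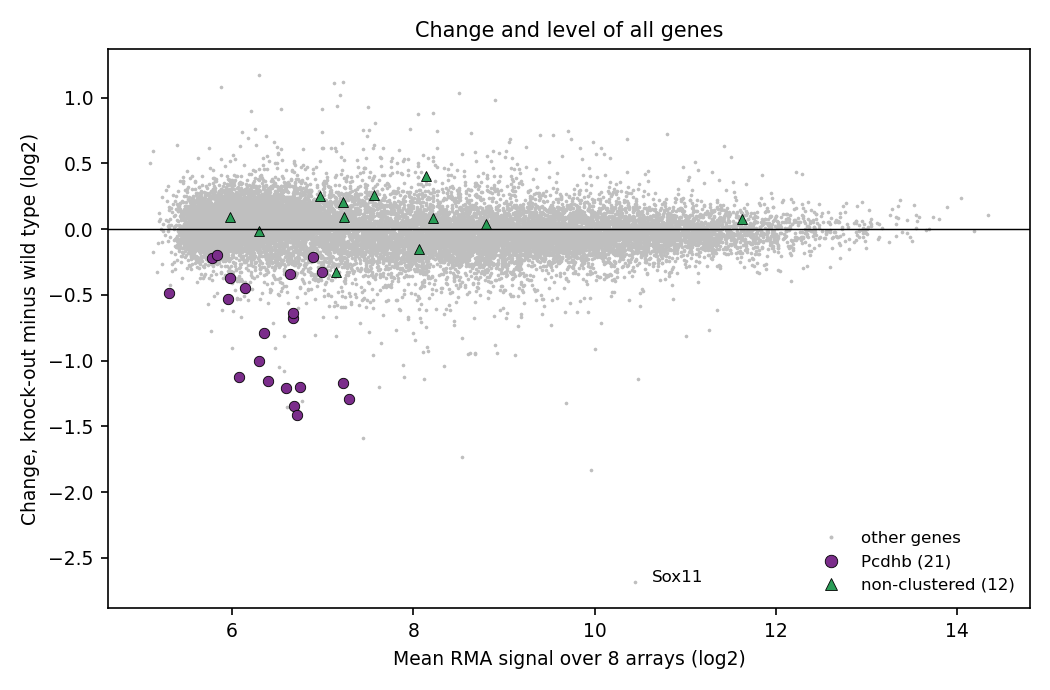
Change between genotypes (vertical axis, log2) against the mean signal over the 8 arrays (horizontal axis, log2) for all genes. Purple circles are the 21 beta genes, green triangles the 12 non-clustered genes and grey points the other genes. The beta genes lie in the lower part of the range of levels and all below 0, and the non-clustered genes lie around 0 from low to high levels.

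The alpha cluster differed from the called beta genes, as far as it was read. A single probe set lists all 14 alpha genes of the RefSeq table, and no single gene is named from it, so it stands outside the 33. It read 6.24, 6.30, 6.18 and 6.36 in wildtype and 6.26, 6.31, 6.19 and 6.37 in knock-out arrays, with full overlap. In a fit of all 27478 probe sets its change was 0.01, with a 95% interval from -0.14 to 0.17 and a limma adjusted p of 0.941. That interval holds none of the changes of the 21 beta genes. It does overlap the 95% intervals of Pcdhb4 to Pcdhb10, such as -0.40 to -0.02 for Pcdhb4, and of no other beta gene. The alpha probe set is thus not set apart from those uncalled genes. The level of the alpha probe set was close to the 25th percentile of all genes. The 22 gamma genes were not analysed here.

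Genes beside the clusters were compared in the same fit, using the order of genes in the RefSeq table. Of the 20 measured genes that lie between or next to the clusters and are not protocadherins, limma called 0. Over all genes it called 1.44%. An unadjusted p under 0.05 was reached by 3 of the 20, against 16.7% of all genes in either direction. The model without shared variance also called 0 of these 20. Their changes ran from -0.23 to 0.25 with a median of -0.08, and 16 were below 0. Taf7, a subunit of the basal transcription factor TFIID that lies between the beta and the gamma genes, read 8.03 ± 0.13 in wildtype and 7.81 ± 0.06 in knock-out arrays (SD, n = 4 each; change -0.23, limma adjusted p = 0.189). Rell2, beyond the gamma cluster, was at 0.25 (limma adjusted p = 0.267). The non-clustered genes Pcdh1 and Pcdh12, which lie near the same end, are described below and were not called either.

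None of the non-clustered genes passed the threshold: limma called 0 of 12, where it called 1.44% of all genes. At an unadjusted p under 0.05, 1 was lower and 2 were higher, where 9.38% and 7.29% of all genes were. The model without shared variance called 0. Mean signal was higher in the knock-out in 9 of the 12 and lower in 3. Their changes ran from -0.33 to 0.40. The lowest lower bound among their 95% intervals was -0.55, so a fall as large as that of Pcdhb16 to Pcdhb22 lies outside each of the 12 intervals.

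**Figure D4:**
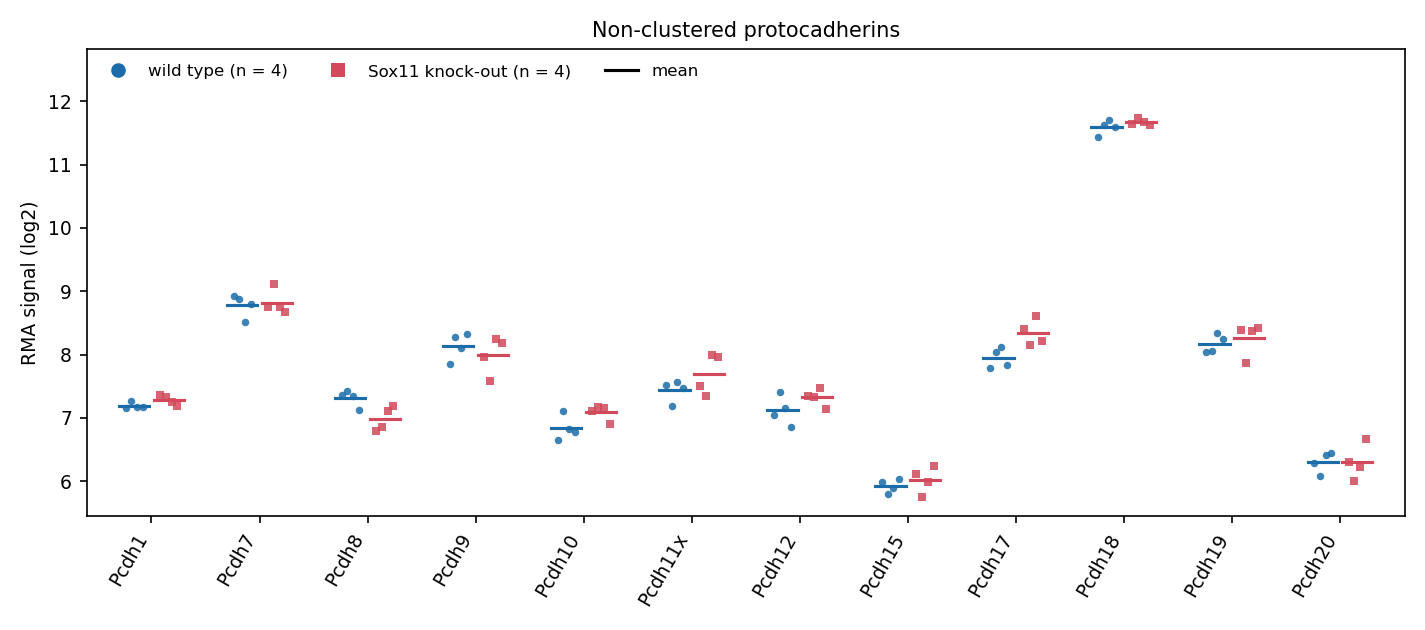
Log2 RMA signal (vertical axis) of the 12 non-clustered genes on each array. Circles are the 4 wildtype arrays, squares the 4 knock-out arrays and lines the means. Only for Pcdh17 do the genotypes not overlap, with knock-out arrays at 8.15 to 8.60 and wildtype arrays at 7.78 to 8.11.

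Delta-2 protocadherins, a subgroup that binds the actin-regulating WAVE complex, showed changes in either direction. Pcdh17, which controls axon extension and synapse assembly, read 7.78, 8.04, 8.11 and 7.83 in wildtype and 8.41, 8.15, 8.60 and 8.21 in knock-out arrays. All knock-out arrays lay above all wildtype arrays, which held for 4.04% of genes, but the space between them was 0.04. Its change of 0.40 (SE 0.11, 95% interval 0.15 to 0.65) had a limma adjusted p of 0.111. Pcdh8, the paraxial protocadherin of early mesoderm and somites, read 7.37, 7.42, 7.34 and 7.13 against 6.80, 6.85, 7.11 and 7.19. The groups overlapped through the last array of each, and the change was -0.33 (SE 0.10, limma adjusted p = 0.157).

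Pcdh10, an adhesion molecule of growing axons, was at 6.65, 7.11, 6.83 and 6.77 in wildtype and 7.12, 7.18, 7.15 and 6.91 in knock-out arrays. Its change was 0.25 (limma adjusted p = 0.253), and wildtype replicate 2 lay among the knock-out arrays. Pcdh18 was read high on the scale, at the 97.4th percentile of level among all genes, with 11.43, 11.63, 11.70 and 11.60 in wildtype and 11.65, 11.73, 11.68 and 11.63 in knock-out arrays. Its change was 0.08 with a 95% interval from -0.08 to 0.24. Pcdh19, an X-linked gene that forms adhesion complexes with N-cadherin, read 8.04, 8.05, 8.34 and 8.25 against 8.39, 7.86, 8.37 and 8.42 (change 0.09, limma adjusted p = 0.760). Knock-out replicate 2 stood below the other 7 arrays.

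Of the delta-1 protocadherins, which carry an extra conserved motif in the cytoplasmic tail, Pcdh1, Pcdh7 and Pcdh9 differed little. Pcdh7 read 8.93, 8.89, 8.51 and 8.80 in wildtype and 8.75, 9.11, 8.75 and 8.68 in knock-out arrays, a change of 0.04 whose sign turned when wildtype replicate 3 or knock-out replicate 2 was left out. Pcdh9 was at 7.85, 8.28, 8.11 and 8.33 against 7.96, 7.58, 8.25 and 8.19 (change -0.15, limma adjusted p = 0.649). A second Pcdh9 probe set, which the rule did not keep, had a change of 0.05 (95% interval -0.24 to 0.35), so the probe sets of this gene differed in sign without either being called. Pcdh1, an adhesion protein of epithelia, had a change of 0.10 (95% interval -0.05 to 0.24).

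Pcdh11x, the other X-linked member, read 7.51, 7.19, 7.57 and 7.47 in wildtype and 7.50, 7.34, 7.998 and 7.96 in knock-out arrays. Its change was 0.26 (limma adjusted p = 0.410). The high knock-out arrays were replicates 3 and 4. These and wildtype replicate 1 were the arrays with Y-linked signal, and with that signal as covariate the change was 0.18.

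The last 3 non-clustered genes have more particular roles. Pcdh12, also known as VE-cadherin-2 and found on endothelial cells, read 7.05, 7.41, 7.15 and 6.86 in wildtype and 7.35, 7.33, 7.47 and 7.14 in knock-out arrays (change 0.21, limma adjusted p = 0.394). Pcdh15, part of the tip links of hair cells in the inner ear, was near the low end of the scale at 5.93 ± 0.11 and 6.02 ± 0.20 (SD, n = 4 each). Its other probe set gave a similar change, 0.13 against 0.10, and neither was called. Pcdh20 was at 6.31 ± 0.17 and 6.30 ± 0.28 (SD, n = 4 each), with a change of -0.01 that turned to 0.019 under median centring and 0.032 with array weights.

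**Figure D5:**
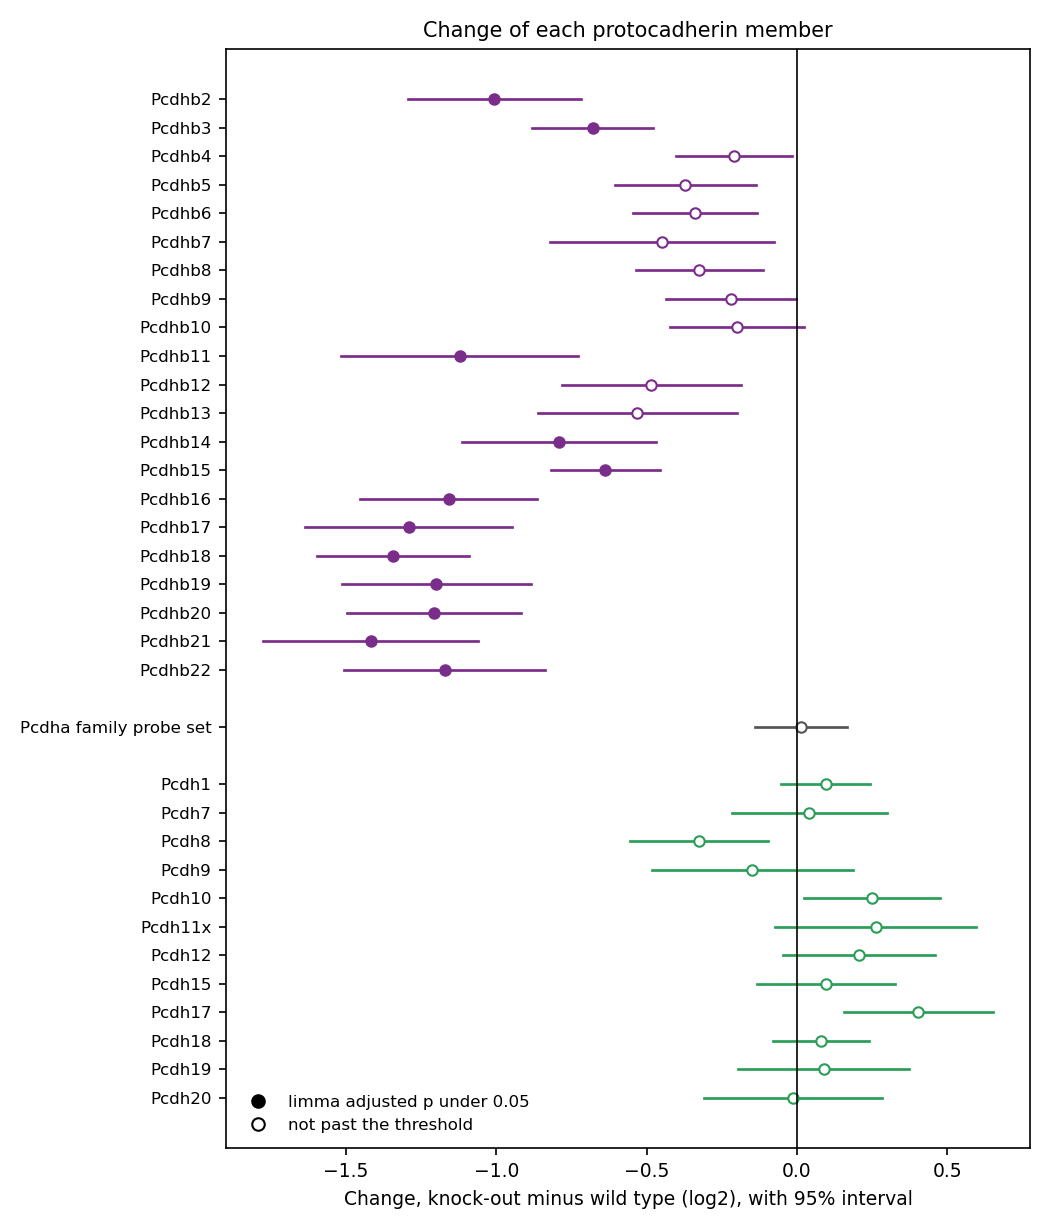
Change of each member between genotypes (horizontal axis, knock-out minus wildtype, log2) with its 95% interval from limma. Purple rows are the beta genes, the grey row is the probe set shared by the alpha genes and green rows are the non-clustered genes; filled points passed a limma adjusted p of 0.05. The 12 filled points are all beta genes between -1.42 and -0.64, and the intervals of the non-clustered genes end at or above -0.55.

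Genes that set protocadherin promoter use were listed with earlier results of these data known, as were all lists below. Of 16 such genes (CTCF, cohesin and its loaders, DNA methyltransferases and chromatin silencers among them) 15 were measured. Limma called 0 of 15, where it called 1.44% of all genes, and the model without shared variance called 0. An unadjusted p under 0.05 was reached by 1 of the 15, against 16.7% of all genes. The median change of the 15 was -0.06. Rest, a repressor of neuronal genes that also binds protocadherin promoters, was at 10.51 ± 0.10 in wildtype and 10.29 ± 0.10 in knock-out arrays (SD, n = 4 each; change -0.22, limma adjusted p = 0.186). Ctcf was at -0.09, with a 95% interval from -0.23 to 0.05.

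Of 18 genes whose products bind protocadherins or carry their signals, such as the WAVE complex, focal adhesion kinases and Fyn, 16 were measured. Cyfip1 and Ptk2 were not. Limma called 1 of the 16, where it called 1.44% of all genes. Ret, a receptor kinase with cadherin-like repeats that can phosphorylate clustered protocadherins and is better known for driving ureteric bud growth, rose from 9.66 ± 0.06 to 10.07 ± 0.10 (SD, n = 4 each; change 0.41, limma adjusted p = 0.0220). Its call was lost without wildtype replicate 2 or 3 or knock-out replicate 1, 2 or 3 (limma adjusted p up to 0.0764). The model without shared variance ended that call as well (adjusted p in that model 0.0692). Fyn was at -0.22 (limma adjusted p = 0.150). The list had a median change of -0.03 with 4 of 16 at an unadjusted p under 0.05, against 16.7% of all genes.

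Other cadherin genes changed in either direction. Among 23 classical and related cadherins (symbol Cdh and a number) Cdh8, a type II cadherin of neurons, fell from 7.76 ± 0.20 to 7.22 ± 0.12 (SD, n = 4 each; change -0.54, limma adjusted p = 0.0379). The other 22 did not pass, where 1.44% of all genes were called. Changes of the 23 ran from -0.54 to 0.56 with a median of 0.07, and 7 had an unadjusted p under 0.05, where 16.7% of all genes did. Cdh8 kept its call without wildtype replicate 1 but lost it without any other array (limma adjusted p up to 0.122). That call was also lost under median centring, a replicate block, a covariate for Y-linked signal and the model without shared variance. Cdh12 was at 0.44 (limma adjusted p = 0.0739). Of 14 measured genes of the Fat, Dachsous, Celsr and calsyntenin group with their planar polarity partners limma called 0. Over all genes it called 1.44%. Of the 14, 8 had an unadjusted p under 0.05, against 16.7% of all genes, and the model without shared variance called 0. Fat2 was at 0.28 and Fjx1, a kinase for Fat and Dachsous repeats, at -0.27 (limma adjusted p = 0.0740 and 0.106).

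Neurons are the best-known site of beta protocadherins, and a dissected ridge may hold some. Of 16 neuronal markers 15 were measured. Dcx, which encodes doublecortin of migrating neurons, fell from 8.63 ± 0.27 to 7.70 ± 0.37 (SD, n = 4 each; change -0.93, limma adjusted p = 0.0384). The other 14 did not pass, where 1.44% of all genes were called. Dcx kept its call without knock-out replicate 3 but lost it without any other array (limma adjusted p up to 0.113). Median centring, a further quantile normalization, a covariate for Y-linked signal and the model without shared variance each ended the call as well. Elavl4 was at -0.30 (limma adjusted p = 0.173). The list had a median change of -0.21 with 13 of 15 below 0 and 4 of 15 at an unadjusted p under 0.05, where 16.7% of all genes were. Its mean signal ranged from 7.66 to 7.92 over the wildtype arrays and from 7.41 to 7.76 over the knock-out arrays, so the genotypes overlapped. In wildtype replicates 1 to 4 it was 7.87, 7.92, 7.66 and 7.69. Of the 15 markers 7 lay above the median level and Prph below the 25th percentile. The part of neuronal content in the fall of the beta genes was not tested.

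Neural crest and neural progenitor markers showed no common fall. Erbb3, a neuregulin receptor of crest-derived glia, rose by 0.36 (limma adjusted p = 0.0417). Its call was lost without any 1 of the 8 arrays (limma adjusted p up to 0.113). A replicate block, a covariate for Y-linked signal and the model without shared variance each ended it too. Ngfr was at -0.46 (limma adjusted p = 0.0931). The other 5 of 6 measured crest markers did not pass, and the median was 0.15. An unadjusted p under 0.05 was reached by 4 of 6, where 16.7% of all genes had one and 1.44% were called. Of 8 progenitor markers limma called 0, with 0 at an unadjusted p under 0.05 and 0 in the model without shared variance. Their median was 0.07, with Nes at -0.19 and Sox1 at 0.08, and Nkx6-1 and Sox3 lay below the 25th percentile of level.

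Somite markers are given beside Pcdh8, which is active in that tissue. Both Meox2 and Uncx, homeobox factors of somite patterning, fell (changes -0.50 and -0.88, limma adjusted p = 0.0117 and 0.0148). Both calls were lost in the model without shared variance (adjusted p in that model 0.0646 for Meox2 and 0.109 for Uncx). Of the 9, 7 did not pass, where 1.44% of all genes were called. An unadjusted p under 0.05 was found in 3 of 9, against 16.7% of all genes. Changes of the 9 ran from -0.94 to 0.16 with a median of -0.04, and the gene at -0.94 was not called. The list's mean signal ranged from 7.78 to 7.87 in wildtype and from 7.47 to 7.72 in knock-out arrays, without overlap. Uncx missed the threshold without knock-out replicate 1 (limma adjusted p = 0.0505). Endothelial markers are given beside Pcdh12: limma called 0 of 8, 0 had an unadjusted p under 0.05 and the model without shared variance called 0. Of the 8, 7 lay above 0 with a median of 0.09, and Emcn and Cdh5 were at 0.18 and 0.15. Their part in the values of Pcdh8 and Pcdh12 was not tested.

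Of 9 measured nephric duct markers Ret rose and 8 did not pass, with Lhx1 at 0.42 (limma adjusted p = 0.0577). The duct list had 8 of 9 genes above 0, a median of 0.25 and 5 of 9 at an unadjusted p under 0.05. For this and the next lists, the shares over all genes were 16.7% at that unadjusted p and 1.44% called. The duct list's mean signal ranged from 9.03 to 9.22 over the wildtype arrays and from 9.25 to 9.41 over the knock-out arrays, without overlap. In the metanephric mesenchyme list Six2, which keeps nephron progenitors undifferentiated, fell (change -0.48, limma adjusted p = 0.0437) and 9 of 10 did not pass, with Eya1 at -0.28, a median of -0.13 and 4 of 10 at an unadjusted p under 0.05. Six2 kept its call without wildtype replicate 1 but lost it without any other array (limma adjusted p up to 0.122). Its call also ended under median centring, a further quantile normalization, a covariate for Y-linked signal and the model without shared variance. Of 5 genes of the gonad primordium and coelomic lining Cbx2, a Polycomb subunit, fell (change -0.48, limma adjusted p = 0.00648), with Upk3b at 0.16 (its sign turned without wildtype replicate 1), a median of -0.22 and 1 of 5 at an unadjusted p under 0.05. Erythroid markers had 0 of 7 called by limma, 3 at an unadjusted p under 0.05 and 0 in the model without shared variance, with Rhag at -0.45, Epb42 at -0.38 and a median of -0.22. Gut and cloacal epithelium had 0 of 7 called by limma, with 0 at an unadjusted p under 0.05 and 0 without shared variance, with Krt8 at 0.23, Sox17 at 0.10 and a median of 0.06.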

How the data were processed

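Each of the 8 arrays has 1 column of log2 signals. The authors' deposited log2 values came from RMA and Partek, per the submitters' processing notes; the sources used here give no versions, filters or annotation build. The log2 scale was read from the values (4.30 to 14.62). Gene names came from GEO's platform annotation, where of the probe sets 21103 had 1 symbol, 1531 several and 4844 none. Symbols were checked by gene identifier against RefSeq's table for GRCm38.p6, which otherwise served for gene order, chromosomes and the counts of family genes.

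Genes were fitted in R 4.3.3 by limma 3.58.1 (lmFit, then eBayes; genotype as the only term, two-sided) over all 19356 genes, with no filter on level. It was tested on simulated data. The number of arrays limits the precision. The members and lists were chosen with earlier results of these data known. Named genes were Sox11, every member and, per list, the called genes, filled up to 2 by the lowest p. Alternatives were other normalizations, level filters, probe set rules, moderation, array weights, a replicate block, a Y-linked covariate (3 genes), other thresholds and leaving out each array. Figures were drawn with matplotlib 3.10.9.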

Additional observations from a re-analysis of the deposited data

Results flagged for a closer look

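In 66 sets of 4 arrays (33 members in each genotype) the highest or lowest array was compared with the rest, and 3 sets had an array standing far from the other 3, where chance gives about 5%. All 3 were non-clustered genes. Pcdh1 read 7.27 in wildtype replicate 2, with the other wildtype arrays between 7.16 and 7.17. Pcdh7 read 9.11 in knock-out replicate 2, above 8.68 to 8.75 in the others. Pcdh19 read 7.86 in knock-out replicate 2, below 8.37 to 8.42 in the others. No beta gene had such an array.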

How the results depend on the processing

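The count of 12 beta genes, which was also the count over all 33 members, lay between 10 and 13 without any 1 array and between 10 and 12 under the alternatives other than these: without moderation it was 1, and among genes above the median level it was 0 because no beta gene lies there. The median beta change kept its sign throughout, although the probe set rules and the replicate block could not alter it. No member was called higher in any fit. Leaving out 1 array gave 88 to 192 genes called lower (209 with all arrays) and 17 to 55 called higher (70 with all arrays). Lower and higher calls numbered 117 and 34 with the Y-linked covariate, 48 and 7 without moderation, 465 and 218 at a threshold of 0.10 and 60 and 11 at 0.01. Median centring gave 137 lower and 82 higher calls and moved the median change of all genes to 0.03. With the replicate number as a block 117 were lower. Deviations of same-numbered arrays correlated at -0.17 to 0.09 and those of differently numbered arrays at -0.24 to 0.24. These ranges overlap, so whether same-numbered arrays shared a litter or batch cannot be read from them. Under the replicate block no call of a member changed, Cdh8 and Erbb3 lost their calls and Cdh12 gained one. Pcdh20 turned to 0.019 under median centring and 0.032 with array weights, and ranged from -0.14 to 0.085 without 1 array; Pcdh7 then ranged from -0.054 to 0.091 and Upk3b from -0.0027 to 0.34. Signals near the low end of the scale limit what can be read of the weaker beta genes.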
